A study of Mus musculus with 12 samples.

Results

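The genes described here encode the core spliceosome proteins, the SR proteins and the hnRNP proteins of M-MDSCs. They are the rows of the count table whose symbols begin with Snrp, Sf3a or Sf3b, Srsf, and Hnrnp or its older spelling Hnrp. The rule found 51 genes among the 23420 in the table, namely 12 Snrp, 8 Sf3, 11 Srsf and 20 Hnrnp genes. M-MDSCs are monocytic myeloid-derived suppressor cells, immature myeloid cells that restrain T cells and can become osteoclasts. They were sorted from the bone marrow of male C57BL/6JNIA mice as CD11b+Ly6G-Ly6Chi cells, and their RNA was sequenced as 1 library per mouse. The young group held 6 mice of 6 months and the aged group 6 mice of 24 months, and the labels name no transgene or treatment in either group. The comparison of the ages asked how these genes differed in M-MDSCs of aged mice, and the comparison of the families asked whether they differed alike.

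Splicing removes introns from a newly made transcript. U small nuclear ribonucleoproteins recognise the ends of the intron, each built on a ring of Sm proteins, and the SF3A and SF3B complexes hold the U2 particle at the branch point. SR proteins mostly favour the use of the exons they bind, hnRNP proteins often oppose it, and in myeloid cells this balance shapes the transcripts made as monocytes and granulocytes mature. Many SR and hnRNP genes limit their own level by splicing in an exon that sends the transcript to decay.

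Libraries held between 4613239 and 16300374 counts assigned to genes, with 8737941 to 16300374 in aged and 4613239 to 9079237 in young mice. Levels are given as CPM, counts scaled to a library total of 1e+06 after trimmed-mean (TMM) correction, and 3 counts corresponded to between 0.188 and 0.643 CPM. The alignment numbers in the table's headers were 11 to 16 in the young group and 17 to 19 or 24 to 26 in the aged group, so age and any change of preparation between these blocks cannot be told apart. Young mice 5 and 6 stood apart from the other young mice. They had the highest TMM factors, 1.10 and 1.08, and the highest summed level of 16 proliferation markers, 1583 and 1581 CPM against 914 to 1106 CPM in the other 4 young mice. In aged mice the same markers summed to between 556 and 1141 CPM, and 2 of the 16 were called lower and 0 higher, Mki67 at a log2 fold change of -2.01 and Top2a at -0.62. Young mice 5 and 6 also had the lowest summed level of 10 neutrophil markers of all mice, 69370 and 73721 CPM. The other 4 young mice held 83420.5 to 94722 CPM. The families are also given without young mice 5 and 6. Of the markers of the sorted cell, Ly6c2 and Itgam averaged 500.3 and 3376 CPM in young mice and 727 and 2895 CPM in aged mice, while Ccr2, Fcgr1 and Klf4 averaged 37.1, 2.89 and 2.74 CPM in young mice and 31.2, 4.19 and 1.26 CPM in aged mice. Of the 10 classical monocyte markers 1 was called higher and 2 lower, with sums of 4007 to 4194 CPM in young and 3418 to 4478 CPM in aged mice. The 10 neutrophil markers summed to between 69370 and 94722 CPM in young and between 89145 and 106360 CPM in aged mice, with 5 of the 10 called higher and 0 lower. The neutrophil sums thus lay far above the monocyte sums in every mouse. The name M-MDSC stands here for the sorted gate, and these markers do not show a mainly monocytic profile. All 9 markers of resident macrophages were called higher in aged mice, with sums of 61.0 to 1126 CPM against 52.9 to 69.2 CPM. The B cell, plasma cell, erythroid, dendritic cell and T and NK cell lists summed to at most 12.6 CPM in any mouse. Of these, the dendritic cell list was 0.83 to 2.80 CPM in aged and 3.24 to 8.05 CPM in young mice. Its member Clec9a was called lower at -2.45 (edgeR adjusted p = 2.89e-05). A lower level of an RNA in a library and fewer cells carrying it cannot be told apart in bulk RNA, and the part of these markers in the results below was not tested.

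Of the 51 genes, 48 had enough counts to be tested. A gene was called when edgeR's quasi-likelihood test gave an adjusted p under 0.05 over all 9742 genes tested. In aged M-MDSCs 11 members were called higher and 12 lower, and 25 were not called. Over all genes 22.4% were called higher and 23.0% lower, 45.4% in all, so the 48 members as 1 set were called about as often as other genes. The median log2 fold change was -0.05 over the members and 0.01 over all genes. The differences between the families were not tested. Of 11 tested Snrp genes 6 were called higher and 0 lower, of 8 Sf3 genes 3 were higher and 1 lower, of 10 Srsf genes 0 were higher and 4 lower, and of 19 Hnrnp genes 2 were higher and 7 lower. The median log2 fold changes were 0.34, -0.0050, -0.15 and -0.16 in the same order. With fold changes corrected for gene length, 1 Snrp gene was called higher and 3 lower, and the Snrp median was -0.02.

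**Figure D1:**
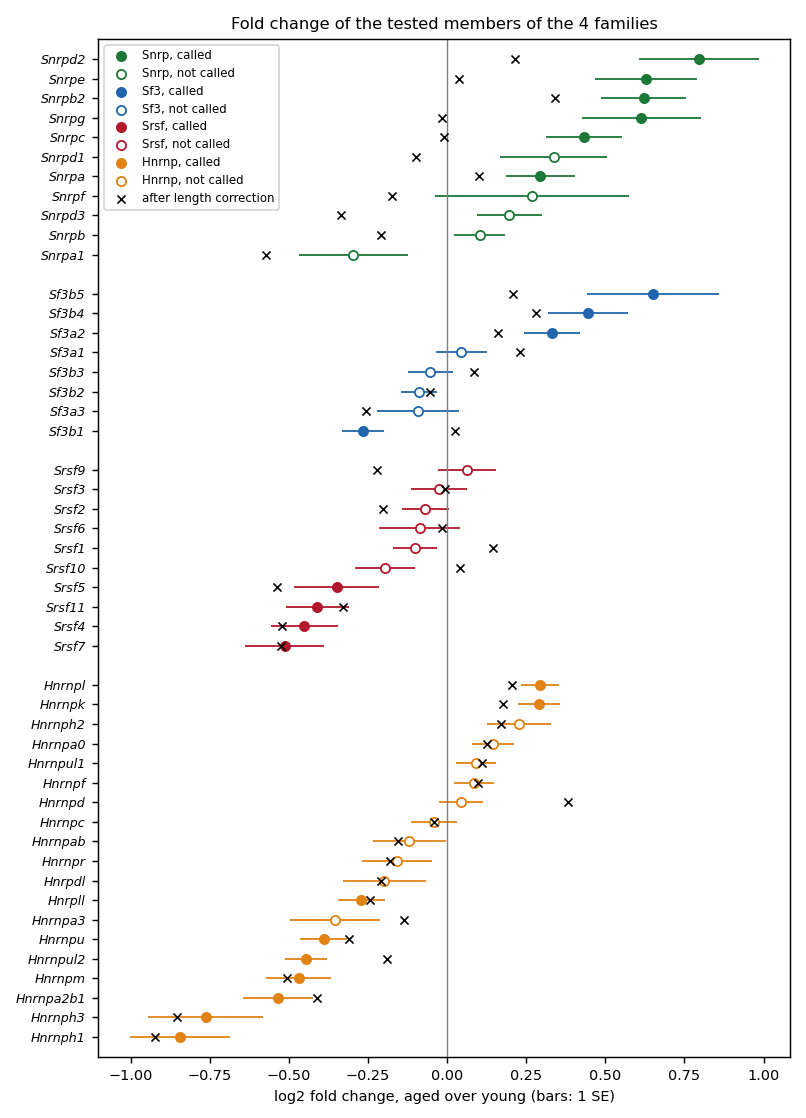
Log2 fold change of each tested member, aged over young (horizontal axis), by family, with bars of 1 SE. Filled points were called by edgeR's quasi-likelihood test, open points were not, and crosses give the value after correction for exon length. The Snrp genes lie mostly to the right of 0, and each of their crosses lies left of its point, while the lowest Srsf and Hnrnp genes keep their place.

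Exon length was related to the fold change across the whole table, and the families differ in length. The median exon length was 813 bases for the tested Snrp genes, 2465 for Sf3, 2894.5 for Srsf and 2750 for Hnrnp. Among all tested genes under 1000 bases, 58.8% were called higher and 4.80% lower, whereas of genes of 6000 bases or more 3.83% were higher and 62.1% lower. Spearman's correlation between log2 fold change and length was -0.60 over the 48 members and -0.48 over all 9742 genes, as a description across genes measured in the same 12 libraries. Within the families it was -0.55 for Snrp, -0.68 for Sf3, -0.19 for Srsf and -0.23 for Hnrnp. A fit with a loess correction for length within each library was therefore run as well. It called 18.4% of all genes higher and 16.5% lower. With it 1 Snrp gene was called higher and 3 lower, 1 Sf3 gene higher and 0 lower, 0 Srsf genes higher and 5 lower, and 3 Hnrnp genes higher and 7 lower. The correlation became 0.03 over the members and 0.02 over all genes, but 0.66 over the 10 Srsf genes, where the correction left longer genes with the higher values. The median log2 fold changes became -0.02, 0.12, -0.21 and -0.16. The higher calls of the Snrp family were thus mostly lost, and the lower calls of the Srsf and Hnrnp families were kept in number. What lies behind the relation to length was not tested.

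**Figure D2:**
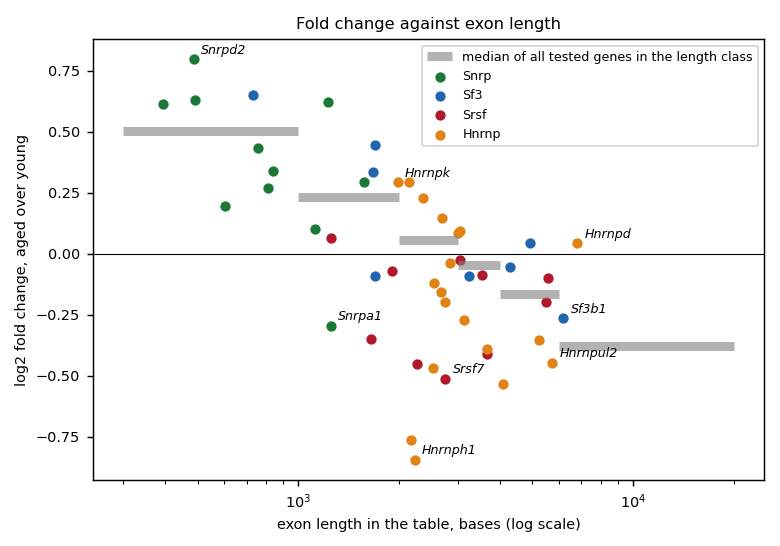
Log2 fold change, aged over young, of the 48 tested members against exon length on a log scale. Grey bars are the medians of all tested genes in 6 length classes, from 0.50 below 1000 bases to -0.38 from 6000 bases. The short Snrp genes scatter around the grey bars, and Hnrnph1 lies far below its class.

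Gene positions in brackets are those of the mm10 annotation in the table, from the first to the last exon base. The Sm and U snRNP proteins form the core of the machinery. Snrpd1, Snrpd2, Snrpd3, Snrpe, Snrpf, Snrpg and Snrpb encode the Sm ring. Snrpd2 (chr7:19149838-19152726) had the largest fold change of the family. Its level was 5.11, 6.04 and 6.75 CPM (lowest, median and highest) in aged mice and 1.83, 3.44 and 4.62 CPM in young mice. The ages did not overlap, and the log2 fold change was 0.80 ± 0.19 (SE, n = 6 per age, edgeR adjusted p = 0.00368). Snrpe (chr1:133603871-133610280) also showed no overlap, with 5.35, 5.74 and 7.12 CPM in aged and 3.06, 3.93 and 5.14 CPM in young mice. Its log2 fold change was 0.63 ± 0.16 (edgeR adjusted p = 0.00557). With length corrected the log2 fold change was 0.22 for Snrpd2 and 0.04 for Snrpe, and neither was called. Snrpg, the shortest member at 393 bases, rose by 0.61 ± 0.19 on the log2 scale, with -0.02 after length correction, and young mouse 10 lay among the aged mice at 7.69 CPM. Snrpd1, Snrpd3 and Snrpf were not called, with log2 fold changes of 0.34, 0.20 and 0.27. After length correction Snrpd3 was called lower at -0.34 (edgeR adjusted p = 0.0151), and the other 2 were not called. Snrpf held only 1.17 to 5.24 CPM. Of its 75-base stretches 85.39% also occur, on either strand, in transcripts of other genes in GENCODE M21, 54.64% in Ccdc38. Fragments below a mapping quality of 60 were not counted, but a stretch shared with an overlapping gene need not lower that quality.

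Snrpb, which encodes SmB, had the highest level per exon length of the family, 39.0 CPM per kb in aged and 36.4 in young mice. It was 42.1, 43.4 and 46.6 CPM in aged and 33.3, 41.5 and 45.8 CPM in young mice, and the ages overlapped. The log2 fold change of 0.10 ± 0.08 was not called (edgeR adjusted p = 0.309). After length correction it was -0.21 (edgeR adjusted p = 0.0147). Its close relative Snrpn, an imprinted gene used mainly in neurons, held 0 counts in every mouse. Of the exon bases of Snrpn 82.77% also belong to Snurf on the same strand in the annotation used, and fragments shared by both genes are not counted for either, so the 0 gives no upper limit for Snrpn. The U1 proteins Snrpa and Snrpc were called higher, with log2 fold changes of 0.29 and 0.43, and neither was called after length correction. Without young mice 5 and 6 the calls of Snrpg, Snrpc and Snrpa were lost, with log2 fold changes of 0.35 (edgeR adjusted p = 0.112), 0.25 (edgeR adjusted p = 0.0544) and 0.22 (edgeR adjusted p = 0.193), and those of Snrpd2, Snrpe and Snrpb2 were kept. Of the genes for U2 proteins only Snrpb2 was called in the main test, and its difference from Snrpa1 was not tested. Snrpb2 (chr2:143063069-143072052), which encodes an RNA-binding protein of U2, had the smallest p of the family. Its level was 11.7, 13.1 and 14.2 CPM in aged and 6.43, 7.93 and 11.8 CPM in young mice, with only young mouse 9 reaching the lowest aged mouse. The log2 fold change was 0.62 ± 0.13 (edgeR adjusted p = 0.00202), and at 0.34 after length correction it was still called (edgeR adjusted p = 0.0370), the only Snrp gene called higher in that fit. Snrpa1, which encodes the partner of that protein in the U2 particle, was 3.10, 3.95 and 4.35 CPM in aged and 3.001, 4.83 and 5.90 CPM in young mice. Its log2 fold change of -0.30 ± 0.17 was not called (edgeR adjusted p = 0.171), and with length corrected it was -0.57 and was called lower (edgeR adjusted p = 0.0189).

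The SF3 genes showed no common direction. Sf3b1 (chr1:54985170-55027478), the largest SF3B subunit and a frequent site of mutation in myelodysplastic syndromes, was 392.5, 408.2 and 455.6 CPM in aged and 448.8, 493.7 and 554.7 CPM in young mice. Only aged mouse 7 lay within the young range. It fell by 0.27 ± 0.07 on the log2 scale (edgeR adjusted p = 0.00449). With length corrected the value was 0.02 and was not called, and at 6191 bases it is the longest Sf3 gene. Sf3b2, the protein that touches the intron near the branch point, had the highest level per exon length, 81.3 CPM per kb in aged and 86.6 in young mice, and its log2 fold change of -0.09 ± 0.06 was not called. The small subunit Sf3b5 (chr10:13008450-13009183) had the largest positive value, with 14.3, 21.5 and 23.4 CPM in aged and 7.49, 14.9 and 17.8 CPM in young mice. The log2 fold change was 0.65 ± 0.21 (edgeR adjusted p = 0.0195), and aged mouse 7 lay inside the young range. Sf3b4 (chr3:96172550-96177564) was 24.2, 25.2 and 28.2 CPM in aged and 14.2, 20.6 and 23.2 CPM in young mice, with no overlap and a log2 fold change of 0.44 ± 0.13 (edgeR adjusted p = 0.0106). Of its 75-base stretches 43.18% also occur in the pseudogene Gm7935. Sf3a2 rose by 0.33 ± 0.09 on the log2 scale (edgeR adjusted p = 0.00685). After length correction none of these 3 rises was called, with log2 fold changes of 0.21 for Sf3b5 (edgeR adjusted p = 0.296), 0.28 for Sf3b4 (edgeR adjusted p = 0.0752) and 0.16 for Sf3a2 (edgeR adjusted p = 0.120). Without young mice 5 and 6, when 14.1% of all genes were called higher and 17.9% lower, none of the 3 Sf3 rises was called. Sf3b4 then had a log2 fold change of 0.24 (edgeR adjusted p = 0.0530), Sf3b5 of 0.33 (edgeR adjusted p = 0.0861) and Sf3a2 of 0.22 (edgeR adjusted p = 0.0581), while Sf3b1 at -0.23 was still called lower. Sf3a1 was called higher in the length-corrected fit alone, at 0.23 (edgeR adjusted p = 0.0454), and Sf3a3 and Sf3b3 were called in neither.

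The promoters of these genes were read as the 250 bases before and 50 after each start in RefSeq on GRCm38.p6, and 45 of the 51 members were matched. The ETS letters CCGGAAG, sought on both strands, were in 15 of the 45 (33.33%), against 9.93% of all 27025 RefSeq symbols and 22.85% of the 7380 symbols that were also tested here. They were in 5 of 6 Sf3 promoters, 4 of 10 Snrp, 4 of 11 Srsf and 2 of 18 Hnrnp promoters. The letters CCAAT, sought in the same way, were in 23 of the 45 (51.11%), namely 13 of 18 Hnrnp, 4 of 10 Snrp, 2 of 6 Sf3 and 4 of 11 Srsf promoters, against 41.06% of all and 43.36% of tested symbols. The other letters sought on both strands were CACGTG (E-box), TATAAA, GCATGCGC (NRF1) and AAGATGGC (YY1). The E-box was in 6 of 45 members (13.33%), against 8.09% of all and 11.99% of tested symbols, and TATAAA in 7 (15.56%), against 15.67% and 8.18%. The NRF1 letters were in 3 (6.67%), against 3.05% and 6.76%, and the YY1 letters in 2 (4.44%), against 3.19% and 6.21%. The 100 bases before the start follow for all 3 SF3A subunits and for genes called in opposite directions, 5' to 3' along the gene, with the motif in capitals. In Srsf11 the capitals also mark the NRF1 letters, as overlapping matches on both strands close to the ETS letters, before the inner of its 2 RefSeq starts.
Sf3a1 (chr11:4160254-4160353, plus strand): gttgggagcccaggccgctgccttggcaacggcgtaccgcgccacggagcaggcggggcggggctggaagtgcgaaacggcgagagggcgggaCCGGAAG
Sf3a2 (chr10:80798635-80798734, plus strand): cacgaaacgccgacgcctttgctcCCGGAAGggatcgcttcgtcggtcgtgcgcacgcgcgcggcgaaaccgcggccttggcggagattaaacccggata
Sf3a3 (chr4:124714761-124714860, plus strand): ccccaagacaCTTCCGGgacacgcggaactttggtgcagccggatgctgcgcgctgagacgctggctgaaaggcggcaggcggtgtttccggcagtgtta
Snrpb2 (chr2:143062969-143063068, plus strand): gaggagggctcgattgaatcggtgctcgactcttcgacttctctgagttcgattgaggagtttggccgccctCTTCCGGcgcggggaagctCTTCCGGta
Snrpc (chr17:27839987-27840086, plus strand): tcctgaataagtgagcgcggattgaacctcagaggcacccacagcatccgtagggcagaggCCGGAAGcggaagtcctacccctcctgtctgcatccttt
Srsf5 (chr12:80945399-80945498, plus strand): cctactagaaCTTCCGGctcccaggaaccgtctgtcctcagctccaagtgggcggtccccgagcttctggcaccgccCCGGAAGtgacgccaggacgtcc
Srsf11 (chr3:158031749-158031848, minus strand): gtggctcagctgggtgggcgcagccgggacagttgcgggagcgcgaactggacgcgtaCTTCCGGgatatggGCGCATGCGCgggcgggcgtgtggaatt
The 3 SF3A promoters hold the same letters, yet Sf3a2 was called higher and Sf3a1 and Sf3a3 were not called. Snrpb2 and Snrpc were called higher and Srsf5 and Srsf11 lower, and these 4 were picked for their opposite calls. A match of letters does not show binding.

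Of the 10 tested SR protein genes, Srsf4, Srsf5, Srsf7 and Srsf11 were called lower in aged M-MDSCs and no Srsf gene was called higher. Over all tested genes 23.0% were called lower and 22.4% higher. Srsf11 (chr3:158010493-158036639), also known as p54, was 36.5, 40.0 and 43.2 CPM in aged and 43.5, 51.6 and 66.8 CPM in young mice, with no overlap. It fell by 0.41 ± 0.10 on the log2 scale (edgeR adjusted p = 0.00396). Srsf7 (chr17:80200080-80207305), an SR protein with a zinc knuckle that also acts in RNA export, had the largest fall of the family. It was 20.1, 22.2 and 27.8 CPM in aged and 23.9, 31.9 and 40.1 CPM in young mice, and aged mouse 1 overlapped the young range. The log2 fold change was -0.51 ± 0.13 (edgeR adjusted p = 0.00418). Srsf4 was 20.6, 22.7 and 29.6 CPM in aged and 28.3, 30.6 and 37.4 CPM in young mice, with aged mouse 7 above the lowest young mice. Its log2 fold change was -0.45 ± 0.10 (edgeR adjusted p = 0.00312). Of its 75-base stretches 63.81% also occur in Gm12992, annotated as a processed transcript. Srsf5 (chr12:80945504-80950507) had the highest level per exon length of the family, 73.4 CPM per kb in aged and 93.2 in young mice. Its level was 88.4, 128.0 and 137.1 CPM in aged and 126.5, 137.7 and 204.0 CPM in young mice, and the ages overlapped widely. The log2 fold change of -0.35 ± 0.13 was close to the threshold (edgeR adjusted p = 0.0449), and without young mice 5 and 6 it was -0.16 and was not called (edgeR adjusted p = 0.272). All 4 were also called lower after length correction, with log2 fold changes of -0.54 for Srsf5, -0.53 for Srsf7, -0.52 for Srsf4 and -0.33 for Srsf11.

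The 6 other tested SR genes were not called, and their log2 fold changes lay between -0.20 for Srsf10 and 0.06 for Srsf9. Srsf1, the founding member of the family, was 135.7, 147.9 and 169.5 CPM in aged and 147.7, 159.3 and 177.3 CPM in young mice. Srsf2, which like Sf3b1 is often mutated in myeloid disease, was 104.9, 115.2 and 125.4 CPM in aged and 106.6, 121.8 and 137.7 CPM in young mice, with a log2 fold change of -0.07 ± 0.07. After length correction Srsf2 was called lower at -0.20 (edgeR adjusted p = 0.0489). Srsf3, the nearest relative of Srsf7, was 58.5, 62.4 and 70.8 CPM in aged and 52.2, 64.8 and 76.3 CPM in young mice. Its log2 fold change was -0.03 ± 0.09, against -0.51 for Srsf7. Of its 75-base stretches 25.2% occur in other genes. Srsf12 held 0 counts in every mouse and was not tested. Its value in CPM can have been at most 0.188 to 0.643, depending on the mouse, as far as counting error goes.

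Much of the spread of the SR genes lay within the young group. In 9 of 10 tested Srsf genes both young mice 5 and 6 lay above the 4 other young mice, and in 0 below, against 23.8% above and 24.6% below over all tested genes. For Snrp these counts were 0 above and 4 below of 11, for Sf3 1 and 4 of 8, and for Hnrnp 8 and 4 of 19. The summed Srsf level was 822.7 and 873.6 CPM in young mice 5 and 6, between 665.5 and 676.7 CPM in the other 4 young mice and between 601.1 and 692.4 CPM in aged mice. The summed Snrp level was 105.0 and 108.2 CPM in young mice 5 and 6, the lowest of all mice, against 118.0 to 145.4 CPM in the other young and 144.4 to 158.9 CPM in aged mice. Without young mice 5 and 6 the median log2 fold change was -0.08 for Srsf and 0.25 for Snrp. The ratio of the Snrp sum to the Srsf sum was 0.217 to 0.250 in the aged and 0.124 to 0.215 in the young group, with no overlap, although young mouse 9 at 0.215 lay next to the lowest aged mouse. These sums weigh abundant genes most and carry no length correction.

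**Figure D3:**
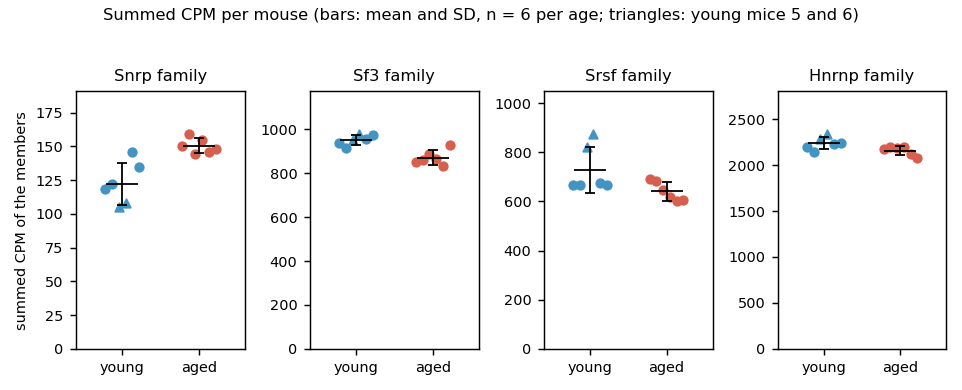
Summed CPM of each family per mouse (points), with mean and SD of 6 mice per age. Triangles are young mice 5 and 6, which lie highest in the Srsf panel and lowest in the Snrp panel. The Sf3 sums of 831.3 to 930.6 CPM in aged mice barely overlap the 917.2 to 977.7 CPM of young mice.

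The hnRNP genes were mostly lower where called. Hnrnph1 (chr11:50377719-50386528), which binds runs of G and acts on exon choice and polyadenylation, was 37.2, 45.7 and 52.6 CPM in aged and 63.4, 68.8 and 114.7 CPM in young mice. All aged mice lay below all young mice. It fell by 0.84 ± 0.16 on the log2 scale (edgeR adjusted p = 8.04e-04), and after length correction the value was -0.92. Young mice 5 and 6, at 112.1 and 114.7 CPM, were its highest values, and without them the log2 fold change was -0.55 and was still called (edgeR adjusted p = 6.75e-04). Its relative Hnrnph3 (chr10:63014664-63023849) was 5.39, 7.52 and 8.66 CPM in aged and 8.79, 10.99 and 17.8 CPM in young mice, with no overlap and a log2 fold change of -0.76 ± 0.18 (edgeR adjusted p = 0.00345). The value was -0.85 after length correction and -0.49 without young mice 5 and 6, called in both. The other F/H proteins did not follow. Hnrnph2, the X-linked near-copy of Hnrnph1, was 42.6, 49.2 and 60.3 CPM in aged and 35.4, 44.6 and 49.0 CPM in young mice. Its log2 fold change, 0.23 ± 0.10, was not called (edgeR adjusted p = 0.0758). Hnrnpf, with 55.95% of its 75-base stretches shared with other genes, had a log2 fold change of 0.08 and was not called. Only 3.11% of the 75-base stretches of Hnrnph1 occur in other genes, and the difference between Hnrnph1 and Hnrnph2 was not itself tested.

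Hnrnpa2b1 (chr6:51460435-51469894), a reader of RNA in export and splicing, was 135.8, 146.3 and 159.8 CPM in aged and 176.8, 189.9 and 276.3 CPM in young mice. There was no overlap, and it fell by 0.53 ± 0.11 on the log2 scale (edgeR adjusted p = 0.00149). The value was -0.41 after length correction and -0.35 without young mice 5 and 6, called in both. Of the 3 tested scaffold proteins of the U type 2 were called lower. Hnrnpul2 (chr19:8819401-8834142) had the smallest p of all members, with 101.0, 104.3 and 112.3 CPM in aged and 125.4, 144.1 and 158.8 CPM in young mice and a log2 fold change of -0.45 ± 0.07 (edgeR adjusted p = 1.45e-04). At 5726 bases it is long, and the length-corrected value was -0.19 (edgeR adjusted p = 0.0191). Hnrnpu (chr1:178328300-178337784), which binds chromatin as well as RNA, was 131.7, 137.8 and 157.9 CPM in aged and 164.0, 181.1 and 214.6 CPM in young mice, and fell by 0.39 ± 0.07 (edgeR adjusted p = 8.27e-04), with -0.31 after length correction. Hnrnpul1 was not called, at 0.09. Hnrnpm and Hnrpll, the latter known for the switch of CD45 isoforms in lymphocytes, fell by 0.47 ± 0.10 and 0.27 ± 0.08, and were at -0.51 and -0.24 after length correction, called in both fits. Hnrnpa3 was not called at -0.35 ± 0.14 (edgeR adjusted p = 0.0527), nor after length correction at -0.14 (edgeR adjusted p = 0.413) or without young mice 5 and 6 at -0.13 (edgeR adjusted p = 0.387), and 27.91% of its exon bases overlap Gm6793.

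Against this direction, Hnrnpk and Hnrnpl rose. Hnrnpk (chr13:58391951-58402516), a binder of C-rich RNA with roles in myeloid growth control, had the highest level per exon length of all members, 170.4 CPM per kb in aged and 139.3 in young mice. Its level was 305.7, 336.7 and 356.4 CPM in aged and 238.5, 280.9 and 297.2 CPM in young mice, with no overlap and a log2 fold change of 0.29 ± 0.07 (edgeR adjusted p = 0.00281). Hnrnpl (chr7:28810890-28822266), which binds CA-rich RNA, was 241.7, 271.4 and 279.4 CPM in aged and 201.7, 214.1 and 232.6 CPM in young mice, again with no overlap and a log2 fold change of 0.29 ± 0.06 (edgeR adjusted p = 0.00129). Hnrnpl and its paralog Hnrpll were thus called in opposite directions. Both rises were still called after length correction, at 0.18 and 0.20. Hnrnpd, an AU-rich element binder of 6810 bases, was 0.04 in the main test and 0.38 after correction, where it was called higher. All 9 calls of the Hnrnp family were also made, in the same direction, without young mice 5 and 6. Hnrnpa1, usually among the most abundant hnRNP genes, held too few counts to test, with at most 0.713 CPM in any mouse. Of its exon bases 91.71% also belong to Gm10052 and Gm5643 on the same strand in that annotation, so its level cannot be read from these counts.

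Of the 48 tested members, 5 were higher and 6 lower in aged mice with no overlap between the ages, against 9.68% and 12.1% of all genes. The 5 were Snrpd2, Snrpe, Sf3b4, Hnrnpk and Hnrnpl, and the 6 were Srsf11, Hnrnph1, Hnrnph3, Hnrnpa2b1, Hnrnpu and Hnrnpul2.

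**Figure D4:**
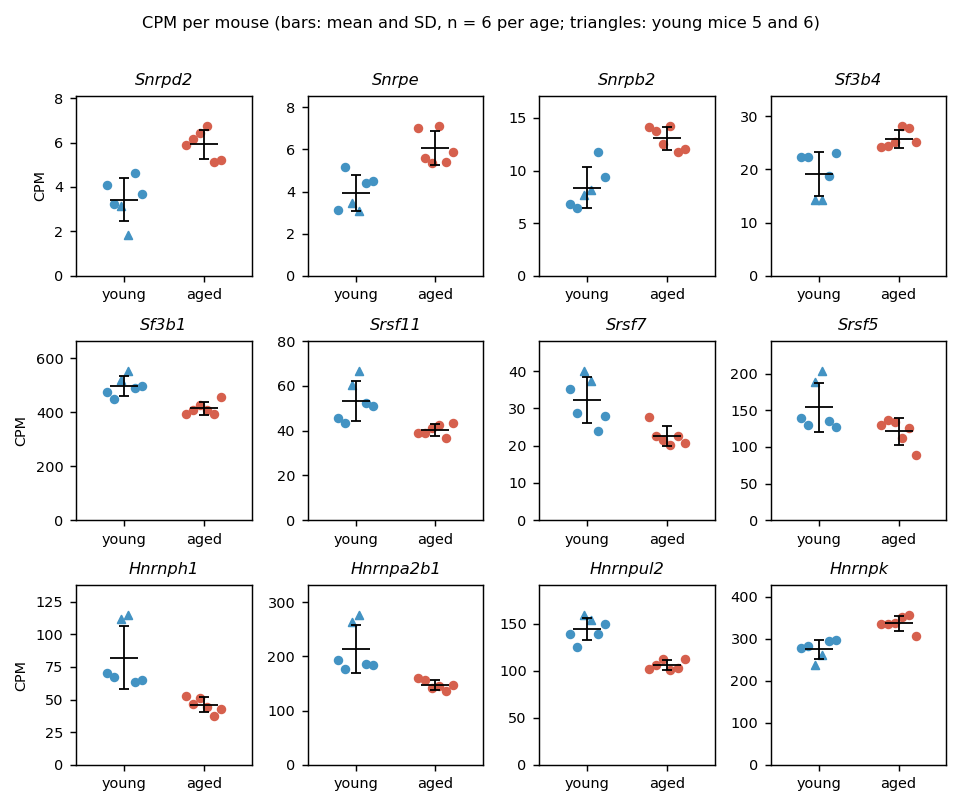
CPM in each mouse for 12 members, with mean and SD of 6 mice per age on axes that start at 0. Triangles are young mice 5 and 6. They lie at the top of the young group for Sf3b1, Srsf11, Srsf7, Srsf5, Hnrnph1, Hnrnpa2b1 and Hnrnpul2. For Snrpd2, Sf3b4 and Hnrnpk they lie at its bottom. Aged and young points are fully apart for Snrpd2, Snrpe, Sf3b4, Srsf11, Hnrnph1, Hnrnpa2b1, Hnrnpul2 and Hnrnpk.

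Transcript models in GENCODE M21 gave a property that the rule did not use. A transcript annotated for nonsense-mediated decay was present for 9 of the 10 tested Srsf genes, 9 of 19 Hnrnp, 4 of 11 Snrp and 1 of 8 Sf3 genes, against 30.4% of all tested genes with a GENCODE name. Among the 12 members called lower, 9 had such a transcript and 11 had a retained-intron transcript. Among the 11 called higher these counts were 4 and 9. Retained-intron models were present for 61.7% of all genes, and their number over the 48 members had a Spearman correlation of -0.29 with the log2 fold change, against -0.15 over all genes. With length-corrected fold changes these were -0.108 and -0.101. Counting by gene does not show which of these transcripts was made.

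Further splicing genes were followed in 12 lists of named factors, with 146 genes tested, of which 19 were called higher and 55 lower. Over all tested genes these shares were 22.4% and 23.0%. After length correction 21 of the 146 were called higher and 46 lower, against 18.4% and 16.5% of all genes. The list of SR-related and nuclear speckle proteins had the lowest median, -0.73, with 17 of 21 genes called lower and 0 higher. After length correction 16 were lower and the median was -0.45, with Tra2b newly called and Son and Scaf11 no longer called. Srrm2, a scaffold of nuclear speckles, was 209.7, 266.5 and 302.4 CPM in aged and 396.3, 450.8 and 595.8 CPM in young mice and fell by 0.89 ± 0.11 on the log2 scale (edgeR adjusted p = 5.22e-05). At 8600 bases it is long, and the length-corrected value was -0.45 (edgeR adjusted p = 0.00140). Nktr, a cyclophilin with an RS domain, had the largest fall, from 77.6, 82.5 and 178.6 CPM in young to 36.9, 41.2 and 49.9 CPM in aged mice. Its log2 fold change was -1.41 ± 0.21 (edgeR adjusted p = 1.89e-04). Leaving out young mouse 5 alone moved Nktr to -1.22 and Srrm2 to -0.82, both still called. The counts and median of this list are not given without young mice 5 and 6. Of 8 SR protein kinase and import genes 4 were called lower and 0 higher, or 3 and 1 after length correction, led by Clk4, a kinase of SR proteins, at -0.70 ± 0.12 (edgeR adjusted p = 4.09e-04). Of 17 other regulators of splicing 10 were lower and 1 higher, and after length correction 6 were lower and 5 higher. Rbm25 fell by 0.98 and Rbm6 by 0.79, and Khdrbs1, known as Sam68, rose by 0.19, and by 0.37 after length correction, and was not called without young mice 5 and 6, at 0.098 (edgeR adjusted p = 0.218).

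Among the core factors outside the 4 families, of 17 Prpf and tri-snRNP genes 5 were lower and 0 higher, or 4 and 2 after length correction, with Prpf39, a U1-associated protein, at -0.87 ± 0.15 and Prpf38b at -0.73 ± 0.10. Of 9 spliceosomal helicases 5 were lower and 0 higher, or 2 and 1 after length correction, and Ddx23 fell by 0.46. Of 11 genes for recognition of the 3' splice site 5 were lower and 1 higher, or 6 and 1 after length correction. Ddx46 fell by 0.46, and by 0.21 after length correction, where it was still called (edgeR adjusted p = 0.0186). Phf5a, a small SF3B subunit without the family's name, rose by 0.60 ± 0.12 (edgeR adjusted p = 0.00137) and was also called after length correction at 0.42. The NTC list had 2 higher and 1 lower of 14, with Syf2 at 0.32 and Cdc5l at -0.22. After length correction neither of these was called, and Bud31, called higher at 0.22 before, was the only one of the 14 called, at -0.26 (edgeR adjusted p = 0.009998). Among 7 genes named Snrnp, Snrnp27 rose by 0.25, and Snrnp70 and Snrnp48 fell by 0.60 and 0.84. After length correction Snrnp70, Snrnp48 and Snrnp35 were called lower and Snrnp200 higher at 0.24 (edgeR adjusted p = 0.0196), and Snrnp27 at -0.18 was not called. Without young mice 5 and 6, the U1 protein Snrnp70 was -0.18, Snrnp48 was -0.37, Snrnp27 was 0.23 and Syf2 was 0.20, and none of these 4 was called.

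The Lsm proteins form rings like those of the Sm proteins, on U6, U7 and in mRNA decay. Of 8 tested Lsm genes 4 were called higher and 1 lower. Lsm4 was 20.4, 25.5 and 28.2 CPM in aged and 11.2, 14.4 and 18.3 CPM in young mice, with no overlap and a log2 fold change of 0.75 ± 0.13 (edgeR adjusted p = 4.01e-04). It was the only one of the 8 called after length correction, at 0.37. Lsm5 rose by 0.97, and by 0.85 without young mice 5 and 6, where it was not called (edgeR adjusted p = 0.0646). Lsm11, a part of the U7 particle, fell by 0.54. After length correction Lsm5 was 0.37 and Lsm11 was -0.23. In the exon junction complex 2 of 5 genes were higher and 0 lower, Eif4a3 at 0.34 and Magoh at 0.34, and after length correction neither was called. Of 13 genes of the SMN complex and snRNP assembly 3 were higher and 1 lower, in both fits, with Gemin7 at 0.42 (-0.04 after length correction) and Sart3, which recycles U6, at -0.56 ± 0.07 (edgeR adjusted p = 8.15e-05). The higher genes were not all the same, as Gemin5 took the place of Gemin7 after length correction, at 0.49 (edgeR adjusted p = 0.00822). The hnRNP-like genes under other names were split, with 5 of 16 higher and 4 lower, or 6 and 4 after length correction. The cold-inducible genes Rbm3 and Cirbp rose by 1.08 ± 0.10 (edgeR adjusted p = 6.64e-06) and 1.30 ± 0.22 (edgeR adjusted p = 4.48e-04). Rbm3 was 81.8 to 115.9 CPM in aged and 41.9 to 57.7 CPM in young mice. Ptbp2, the paralog of the repressor Ptbp1 known from neurons, fell by 1.15 ± 0.14 (edgeR adjusted p = 4.50e-05), with 13.6 to 19.7 CPM in aged and 28.7 to 50.8 CPM in young mice. All 3 were also called after length correction.

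**Figure D5:**
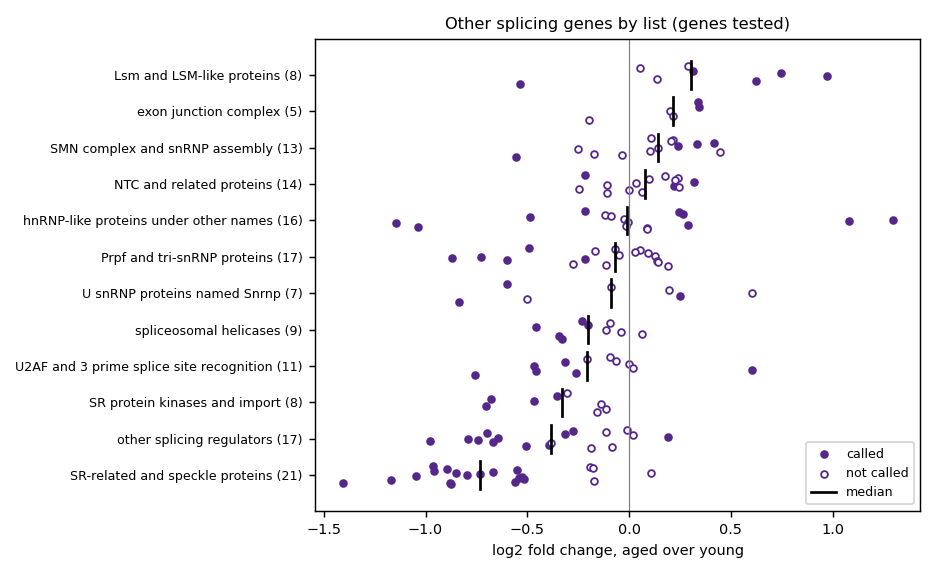
Log2 fold change, aged over young, of the genes of 12 further splicing lists, with the number tested in brackets. Filled points were called by edgeR, open points were not, and black lines are the list medians, from 0.30 for the Lsm list to -0.73 for the SR-related list. Values carry no length correction.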

How the data were processed

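RNA of 12 libraries (6 aged and 6 young mice) was prepared with a stranded TruSeq kit and sequenced in pairs on a NovaSeq. The authors deposited 1 table of raw counts per gene, made per the file headers with featureCounts 2.0.0 on the UCSC mm10 annotation, with reversed strand, exons grouped by gene name, both mates mapped and a mapping quality of at least 60. Fragments shared by overlapping genes were not assigned. The aligner is not given in the sources used here.

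Genes were kept with edgeR's filterByExpr, scaled by TMM and tested for age by quasi-likelihood in edgeR 4.0.16, with p adjusted by Benjamini-Hochberg at 0.05, without covariates, in R 4.3.3. CPM used the same scaling, and levels were divided by exon length to compare genes. Biological variation was 15.7%. Intervals and floors (3 counts) cover counting error only. The step was tested on simulated data. Alternatives were DESeq2 1.42.0, limma 3.58.1 voom, other scaling, filters and thresholds, a per-library loess correction for exon length (span 0.5), and leaving out mice. Shared stretches were 75-base words of GENCODE M21 transcripts, sought on both strands. A shared word can lie in a gene that overlaps at the same place, so it need not have a second place in the genome. No 2 libraries were duplicates, with a chi-square of at least 1.72 per gene. The young mice fell into close pairs, 1 and 2 at 1.72, 9 and 10 at 2.66, and 5 and 6 at 4.21. Young mice 5 and 6 against the other young mice gave 22.6 to 38.6. The fits treat all mice of an age as independent.

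The members and lists were chosen with earlier results of these data known. Named genes were, per family, members without overlap between ages, the largest rise and fall, the smallest p, the highest level per length, untested members and near-identical pairs, and per list the smallest p and the largest called rise and fall. Other genes are named with their values already known. A gene that the rule names is not reported here.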

Additional observations from a re-analysis of the deposited data

Results flagged for a closer look

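In 3 of 46 tests over 23 named members and 2 ages, a single mouse lay far from the other 5 of its age by the gap to its nearest neighbour, set against the range (Dixon's test), and chance flags about 1 in 20 such groups. Sf3b5 was 14.3 CPM in aged mouse 7 and 21.4 to 23.4 CPM in the other aged mice. Srsf4 was 29.6 CPM in aged mouse 7 and 20.6 to 24.0 CPM in the others. Srsf7 was 27.8 CPM in aged mouse 1 and 20.1 to 22.7 CPM in the others. In each case the mouse lay on the side of the young group.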

How the results depend on the processing

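Under DESeq2, limma-voom, no filter, and at least 10 counts in every mouse, the family counts stayed within 1.5 times and the medians within the spread between mice, and no named gene changed direction, but Srsf5 was not called by limma-voom (adjusted p = 0.0523), Snrnp27 not by DESeq2 (adjusted p = 0.0545), and Cdc5l, Khdrbs1 and Snrnp27 not without a filter. Without TMM factors, which moved the median of all genes from 0.01 to -0.08 and the split over all genes to 17.3% higher and 28.4% lower, 2 Sf3 members were called lower, the Hnrnp median was -0.24, Srsf9 was -0.0283, and Khdrbs1 (adjusted p = 0.147) and Snrnp27 (adjusted p = 0.160) were not called. At an adjusted p of 0.01, 1 Sf3 member was called higher. With the length correction, 1 Snrp member was called higher and 3 lower with a median of -0.0159, and 1 Sf3 member higher and 0 lower with a median of 0.12. Of the named genes, Gemin7 then was -0.0431, Magoh -0.19, Sf3b1 0.0238, Snrnp27 -0.18, Snrpb -0.21 and Srsf9 -0.22, all opposite in sign to the main fit. Other members that changed sign were Snrpd3 at -0.34, Snrpf at -0.17, Snrpd1 at -0.098, Snrpg at -0.016 and Snrpc at -0.0091. So did Srsf1 at 0.14, Sf3b3 at 0.083 and Srsf10 at 0.041. Outside the families, Celf2 went from called lower at -0.32 to called higher at 0.18, and Bud31 from higher to lower. The following settings were chosen after seeing the data. With only aged mice 17 to 19 of the alignment numbers, 2 Srsf members were called lower, Srsf4 and Srsf11, and Srsf3 was 0.0604. The calls of Srsf5 (-0.21, edgeR adjusted p = 0.316), Srsf7 (-0.43, 0.0645), Hnrnph3 (-0.64, 0.05002) and Sf3b4 (0.38, 0.0942) were lost, with log2 fold changes in the direction of the main fit. With only 24 to 26, the 2 Srsf members called lower were Srsf5 and Srsf7. The calls of Srsf4 (-0.36, edgeR adjusted p = 0.0609), Srsf11 (-0.38, 0.0553), Sf3b1 (-0.24, 0.0559) and Sf3b5 (0.62, 0.110) were lost. The log2 fold changes of these 4 kept their direction and stayed near the main fit. There 1 Sf3 member, Sf3b4, was higher and 0 lower. The Hnrnp median was -0.24 and Srsf9 was -0.00724. Cdc5l, Khdrbs1, Snrnp27, Snrnp48, Snrnp70 and Syf2 lost their calls in both of these settings, and Lsm11 and Magoh with 24 to 26. Without young mice 5 and 6, 3 Snrp and 0 Sf3 members were called higher, Snrpb was -0.00863 and Srsf3 was 0.0571.

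Leaving out each mouse in turn gave 5 to 7 Snrp and 3 Sf3 members higher, 1 Sf3 member lower, 3 to 4 Srsf members lower, and 2 to 3 Hnrnp members higher and 7 to 8 lower. The medians were 0.30 to 0.47 for Snrp, -0.02 to 0.04 for Sf3, -0.18 to -0.11 for Srsf and -0.23 to -0.0879 for Hnrnp. Srsf3 lay between -0.0807 and 0.0242. Srsf5 was called in 6 of the 12 fits, Cdc5l in 3, Snrnp48 in 5, Snrnp27 in 7, Syf2 in 8, Snrnp70 in 9 and Khdrbs1 in 10, and Hnrnph2 was called in 1.

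Both ages have replicate numbers 1, 2, 5 and 6. Samples of the same number correlated at -0.22 to -0.15, which gave no sign of pairing. These correlations are too few to settle whether mice of the same number were handled together. With the replicate block over these 8 mice, 5 Snrp and 2 Sf3 members were higher, 1 Sf3, 3 Srsf and 7 Hnrnp members lower, and 2 Hnrnp members higher. The block gave 0.00151 for Srsf3 and -0.0212 for Srsf9. The same 8 mice without the block gave -0.0205 for Srsf9. The young libraries with the fewest counts, 4613239 and 5068845, limit the lowest genes such as Snrpf.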
